A study of Homo sapiens with 12 samples.

Results

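The 9 genes described here encode parts of the Notch pathway: the receptors *NOTCH1*, *NOTCH2* and *NOTCH3*, the ligands *JAG1* and *JAG2*, the receptor-modifying glycosyltransferase *LFNG*, the nuclear coactivator *MAML2* and the target genes *HES1* and *HEY1*. They were taken by gene name from the count tables of the libraries labelled KYSE30 and U138MG and joined by gene identifier. All 9 passed the filter on low counts in each table, among 16389 genes tested in KYSE30 and 17666 tested in the libraries labelled U138MG. Notch receptors span the plasma membrane and are activated by ligands on a neighbouring cell. Ligand binding exposes the receptor to cleavage by an ADAM protease and then by gamma-secretase, which frees an intracellular part that enters the nucleus and, with RBPJ and a Mastermind coactivator, switches on genes of the HES and HEY families. In squamous epithelium, where *NOTCH1*, *NOTCH2*, *NOTCH3*, *JAG1* and *JAG2* are commonly expressed, the pathway is known for its part in the move of basal cells toward differentiation.

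Poly-A RNA was sequenced from cultures of established human cancer lines, given as wild type, after 48 h with either 100 nM PTDSS1i, a small-molecule inhibitor of the phosphatidylserine synthase PTDSS1, or its vehicle DMSO. There were 3 cultures for each treatment in KYSE30, labelled an esophagus squamous cell carcinoma line and batch1, and 3 for each in U138MG, labelled a glioblastoma line from brain and batch2, so 4 groups and 12 libraries in all. The series text calls the cultures biological replicates, and line and batch cannot be told apart. Total counts lay between 18800932 and 26514658 per library, and 3 counts corresponded to at most 0.160 CPM, the count scaled to library size. Several defining markers went against the label of the U138MG libraries. Their glial markers *OLIG2* and *S100B* had no counts, *VIM* reached at most 0.482 CPM and *GFAP* 2.51 CPM, while *KRT5* lay at 1380 to 1544 CPM and *CDH1* at 461 to 465 CPM in DMSO, and the growth protocol given for them is that of KYSE30. Not every marker ran that way. *SPARC* lay at 699 to 725 CPM, *SOX2* at 37.6 to 41.1 CPM and *CDH2* at 10.9 to 12.6 CPM in DMSO, where *KRT14* and *KRT6A* reached at most 0.366 and 0.583 CPM. *SOX2* was higher in KYSE30 DMSO, at 97.2 to 103 CPM, and *NES* lay at 0.422 to 0.673 CPM in DMSO in the libraries labelled U138MG. These samples are therefore called the libraries labelled U138MG throughout. In KYSE30, *KRT5* and *KRT14* stayed under 1 CPM, while *TP63* lay at 89.6 to 103 CPM and *CDH1* at 493 to 542 CPM in DMSO.

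The sequences before 3 of the genes are shown, because *HES1* is the classical direct target, *JAG2* showed the largest fall and *NOTCH3* moved in opposite directions. They are the 250 bases before the RefSeq start on the GRCh38.p14 assembly, printed 5′ to 3′ on the strand of the gene. Capitals mark TGGGAA, the core letters that RBPJ is known to bind.
HES1 (chr3:194135898-194136147, plus strand): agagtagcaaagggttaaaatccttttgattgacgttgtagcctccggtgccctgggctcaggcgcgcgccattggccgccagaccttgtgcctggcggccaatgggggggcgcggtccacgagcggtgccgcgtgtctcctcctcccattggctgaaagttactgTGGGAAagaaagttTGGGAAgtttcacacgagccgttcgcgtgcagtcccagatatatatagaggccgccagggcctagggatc
JAG2 (chr14:105168777-105169026, minus strand): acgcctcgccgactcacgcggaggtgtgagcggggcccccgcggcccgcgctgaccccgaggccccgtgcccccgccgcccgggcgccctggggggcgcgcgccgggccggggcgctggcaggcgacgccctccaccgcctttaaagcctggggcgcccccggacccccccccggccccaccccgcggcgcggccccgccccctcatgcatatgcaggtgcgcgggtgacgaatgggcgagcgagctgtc
NOTCH3 (chr19:15200996-15201245, minus strand): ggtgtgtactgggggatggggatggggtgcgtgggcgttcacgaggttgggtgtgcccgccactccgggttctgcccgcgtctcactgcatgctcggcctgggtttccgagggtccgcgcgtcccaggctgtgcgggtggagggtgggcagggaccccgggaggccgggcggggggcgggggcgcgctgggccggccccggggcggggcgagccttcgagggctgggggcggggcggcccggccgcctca
The *HES1* stretch holds TGGGAA at 2 places, starting 84 and 70 bases before the start, each on the strand of the gene. Both strands were searched, and a window of 250 bases before to 50 bases after the start was used for all genes. In that window 24.3% of 27305 RefSeq promoters hold the letters at least once and 3.81% at least 2 times. Of the 8 genes with an entry in the promoter table, *HES1* and *LFNG* hold them, *LFNG* once, starting 5 bases before the start on the opposite strand. *HEY1* has no entry. Of 38 promoters found for a wider list of 45 pathway genes, 10 hold them. A match is a description of letters and not of binding.

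In KYSE30, PTDSS1i was accompanied by lower mRNA of most of these genes and by higher *NOTCH3*. A gene was called higher or lower where edgeR's quasi-likelihood p, adjusted over every gene tested, was under 0.05. By this rule *NOTCH3* and *MAML2* were higher, and *NOTCH1*, *NOTCH2*, *JAG1*, *JAG2*, *LFNG* and *HES1* were lower. These are 2 of 9 higher, where 30.1% of all tested genes were, and 6 of 9 lower, where 32% were. The changes were small. None of the 9 passed a log2 fold change of 1 in either direction, which 13.4% of all tested genes did. The median log2 fold change of the 9 genes was -0.22, beside -0.03 over all tested genes. For 8 of the 9, and for 66.3% of all tested genes, the values of one treatment lay apart from those of the other.

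In the libraries labelled U138MG, the ligand *JAG2* and the glycosyltransferase *LFNG* fell past a log2 fold change of 1, *NOTCH1*, *NOTCH3* and *MAML2* fell by less, and the target *HEY1* rose. So 5 of 9 were lower and 1 of 9 higher, where 33.6% and 33.9% of all tested genes were lower and higher. A log2 fold change of 1 was passed by 2 of 9, and by 19.8% of all tested genes. *NOTCH2*, *JAG1* and *HES1* were not called. The median log2 fold change of the 9 genes was -0.70, beside -0.03 over all tested genes. The treatments did not overlap for 6 of the 9, and for 71.4% of all tested genes. Markers moved in the same libraries: the summed level of 8 squamous markers lay at 6921 to 7717 CPM in DMSO and at 1773 to 1896 CPM in PTDSS1i, with 6 and 7 of them at 1 CPM or more. *KRT15* (means of 4861 and 458 CPM) and *KRT5* (1469.5 and 526 CPM) held most of the DMSO sum and fell with PTDSS1i. *CDH1* (463 and 269 CPM) and *TP63* (276 and 194 CPM) fell too. *EPCAM* (248 and 348 CPM), *DSG3* (50.3 and 57.5 CPM) and *KRT6A* (0.488 and 1.22 CPM) were higher with PTDSS1i. The summed level of 8 glial or mesenchymal markers lay at 754 to 778 and at 359 to 377 CPM, with 4 and 5 at 1 CPM or more. *SPARC* (means of 713 and 348 CPM) held most of both sums. *SOX2* (38.9 and 4.29 CPM) and *GFAP* (2.36 and 1.35 CPM) were lower with PTDSS1i. *NES* (0.556 and 2.05 CPM) and *VIM* (0.206 and 0.370 CPM) were higher, and *CDH2* (11.9 and 11.6 CPM) changed little. In KYSE30 the squamous sum lay at 921 to 988 and 1169 to 1201 CPM, and the other sum at 113 to 118 and 120 to 125 CPM, of whose 8 genes 6 are listed. Among squamous markers at 1 CPM or more there, *CDH1* (means of 514 and 703 CPM), *EPCAM*, *KRT15*, *DSG3* and *KRT6A* were higher with PTDSS1i. *TP63* (98.2 and 68.1 CPM) was lower. Among the other markers at that level, *VIM* (3.99 and 24.6 CPM) and *CDH2* (6.26 and 7.17 CPM) were higher. *SOX2* (99.4 and 88.0 CPM) and *SPARC* (4.55 and 1.82 CPM) were lower. The part of these markers in the Notch results was not tested. In bulk RNA, fewer cells that express a gene and less of its RNA per cell cannot be told apart.

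**Figure D1:**
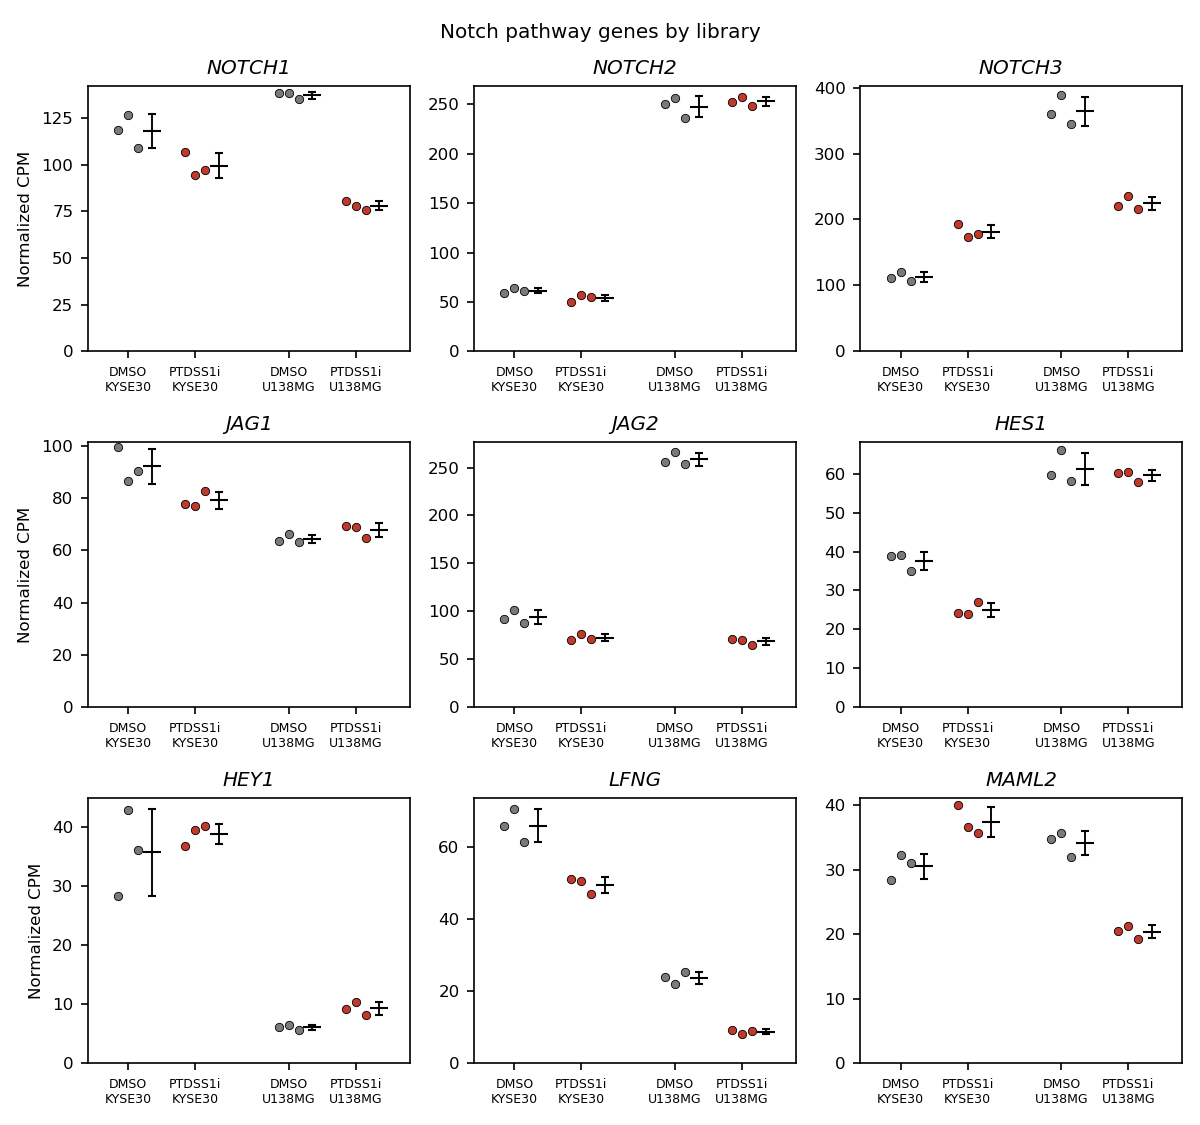
Normalized CPM of the 9 Notch pathway genes (y axis, from 0) in the 12 libraries, by treatment and line label (x axis). Grey points are DMSO and red points PTDSS1i libraries, and the bar beside them is the mean with the SD of 3 libraries. *JAG2* in the libraries labelled U138MG shows the widest gap, from 254 to 267 in DMSO down to 65.0 to 71.4 in PTDSS1i, and *HEY1* in KYSE30 DMSO is widely spread, from 28.3 to 43.0.

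Among the receptors, values are given as CPM normalized by edgeR's TMM factors, for replicates 1 to 3. *NOTCH1* (ENSG00000148400, chr9:136494433-136545786, minus strand, GRCh38) encodes the receptor most often mutated in squamous cancers. In KYSE30 it had 119, 127 and 109 normalized CPM in DMSO and 107, 94.3 and 97.3 in PTDSS1i. All 3 PTDSS1i libraries lay under all 3 DMSO libraries, with a narrow gap between the highest of the one and the lowest of the other. This is a log2 fold change of -0.25 ± 0.061 (SE, edgeR adjusted p = 0.0015). Libraries labelled U138MG had 138.2, 138.2 and 135 in DMSO and 80.4, 77.7 and 75.7 in PTDSS1i. Here the groups were well apart and each was tight, at 137 ± 1.83 and 77.9 ± 2.36 (SD, n = 3). The level was 1.76-fold lower, a log2 fold change of -0.82 ± 0.039 (SE, edgeR adjusted p = 5.81e-17).

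*NOTCH3* (ENSG00000074181, chr19:15159038-15200981, minus strand) encodes the receptor with the shortest intracellular part of the 3. It was the member that turned direction between the lines by the most. KYSE30 cultures had 111, 120.4 and 106 normalized CPM in DMSO and 193, 173 and 178 in PTDSS1i. Every PTDSS1i library lay above every DMSO library, and the mean was 1.61-fold higher, a log2 fold change of 0.69 ± 0.057 (SE, edgeR adjusted p = 7.86e-10). Libraries labelled U138MG had 360.0, 388 and 345 in DMSO and 221, 236 and 216 in PTDSS1i. Again the groups did not overlap, but PTDSS1i was the lower, 1.62-fold, with a log2 fold change of -0.70 ± 0.043 (SE, edgeR adjusted p = 3.28e-11).

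*NOTCH2* (ENSG00000134250, chr1:119911553-120069626, minus strand) has near-identical partial copies in the genome, and its counts are uncertain for that reason. The copies *NOTCH2NLA*, *NOTCH2NLB*, *NOTCH2NLC* and *NOTCH2NLR* together held 378 counts beside 7441 for *NOTCH2* in KYSE30, or 5.08% of the *NOTCH2* count, and 4518 beside 33926, or 13.3%, in the libraries labelled U138MG. In KYSE30 *NOTCH2* had 58.9, 64.2 and 61.3 normalized CPM in DMSO and 50.3, 56.8 and 54.7 in PTDSS1i. The groups did not overlap, though the highest PTDSS1i library came close to the lowest DMSO library. *NOTCH2* was called lower there, at -0.19 ± 0.061 (SE, edgeR adjusted p = 0.0102) on the log2 scale. Without PTDSS1i replicate 1, the lowest library, it was -0.14 and was no longer called (edgeR adjusted p = 0.0899). The libraries labelled U138MG had 250.5, 257 and 236 in DMSO and 253, 258 and 249 in PTDSS1i, which overlapped. The log2 fold change there was 0.03 ± 0.036 (SE, edgeR adjusted p = 0.455), and it turned to -0.12 (edgeR adjusted p = 0.00486) with scaling by library size alone, which moved the median of all genes from -0.03 to -0.17. Upper-quartile scaling also gave -0.12 and a lower call (edgeR adjusted p = 0.00659).

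Of the ligands, *JAG2* (ENSG00000184916, chr14:105140981-105168824, minus strand) fell in both lines. Jagged ligands bind Notch receptors on the adjoining cell. KYSE30 cultures had 92.5, 102 and 87.9 normalized CPM in DMSO and 70.1, 76.8 and 71.2 in PTDSS1i. All PTDSS1i libraries lay under the DMSO libraries, by a log2 fold change of -0.37 ± 0.06 (SE, edgeR adjusted p = 1.56e-05). By contrast, 256, 267 and 254 normalized CPM in DMSO stood against 71.4, 69.8 and 65.0 in PTDSS1i in the libraries labelled U138MG. This was the largest change of the 9 genes in either line, 3.77-fold lower, with a log2 fold change of -1.91 ± 0.04 (SE, edgeR adjusted p = 2.34e-25). Exons of *JAG2* share 469 bases with *AL512356.1* on the same strand, so reads there could be split between them.

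*JAG1* (ENSG00000101384, chr20:10637684-10673999, minus strand) moved less. In KYSE30 it had 99.7, 86.5 and 90.4 normalized CPM in DMSO and 77.7, 77.1 and 82.8 in PTDSS1i. The groups did not overlap, and DMSO replicate 1 stood above the other DMSO libraries. *JAG1* was lower by a log2 fold change of -0.22 ± 0.059 (SE, edgeR adjusted p = 0.00279). The libraries labelled U138MG had 63.6, 66.2 and 63.4 in DMSO and 69.4, 69.1 and 64.7 in PTDSS1i. These groups overlapped through the third PTDSS1i library, and *JAG1* was not called, with a log2 fold change of 0.07 ± 0.046 (SE, edgeR adjusted p = 0.171). Without PTDSS1i replicate 3 it was 0.11 (edgeR adjusted p = 0.0392), and with scaling by library size alone -0.076 (edgeR adjusted p = 0.147).

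*LFNG* (ENSG00000106003, chr7:2512529-2529177, plus strand) encodes lunatic fringe, which extends the O-fucose sugars of the receptor and so alters which ligands activate it. KYSE30 values were 65.8, 70.5 and 61.4 normalized CPM in DMSO and 51.1, 50.6 and 47.1 in PTDSS1i. The libraries labelled U138MG had 23.9, 22.0 and 25.3 in DMSO and 9.35, 8.06 and 8.98 in PTDSS1i. In both lines each PTDSS1i library was under each DMSO library. *LFNG* changed by -0.41 ± 0.062 (SE, edgeR adjusted p = 6.49e-06) on the log2 scale in KYSE30. The change was -1.43 ± 0.089 (SE, edgeR adjusted p = 2.59e-14) in the libraries labelled U138MG, 2.69-fold lower.

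*MAML2* (ENSG00000184384, chr11:95976598-96343180, minus strand) encodes a Mastermind coactivator that joins the intracellular receptor and RBPJ. In KYSE30 it had 28.4, 32.2 and 31.0 normalized CPM in DMSO and 40.1, 36.7 and 35.7 in PTDSS1i. PTDSS1i libraries were all higher, with a log2 fold change of 0.29 ± 0.069 (SE, edgeR adjusted p = 9.01e-04). The libraries labelled U138MG had 34.7, 35.6 and 32.0 in DMSO and 20.6, 21.3 and 19.3 in PTDSS1i. There PTDSS1i libraries were all lower, by 1.67-fold, with a log2 fold change of -0.74 ± 0.069 (SE, edgeR adjusted p = 1.59e-10). *MAML2* exons share 549 bases with *AP000779.1*, and *JAG1* exons share 79 bases with *AL050403.2*, each on the opposite strand, which this kit does not tell apart.

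The targets *HES1* and *HEY1* encode transcriptional repressors that are switched on by active Notch, although other signals act on them too. *HES1* (ENSG00000114315, chr3:194136145-194138732, plus strand) had 38.8, 39.1 and 35.0 normalized CPM in KYSE30 in DMSO and 24.2, 23.9 and 27.0 in PTDSS1i. The PTDSS1i libraries were clearly under the DMSO libraries, 1.50-fold lower, with a log2 fold change of -0.58 ± 0.071 (SE, edgeR adjusted p = 3.25e-07). Libraries labelled U138MG had 59.7, 66.0 and 58.2 in DMSO and 60.2, 60.5 and 57.9 in PTDSS1i. Here the groups overlapped and DMSO replicate 2 was the highest library. The log2 fold change was -0.04 ± 0.05 (SE, edgeR adjusted p = 0.455). It was 0.013 without DMSO replicate 2, and it was called lower, at -0.19 (edgeR adjusted p = 0.00159), with scaling by library size alone. Upper-quartile scaling also gave -0.19 and a lower call (edgeR adjusted p = 0.00161).

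*HEY1* (ENSG00000164683, chr8:79764010-79767863, minus strand) had 28.3, 43.0 and 36.1 normalized CPM in KYSE30 in DMSO and 36.9, 39.6 and 40.2 in PTDSS1i. The DMSO libraries were spread so widely that they enclosed all 3 PTDSS1i libraries. The log2 fold change was 0.12 ± 0.14 (SE, edgeR adjusted p = 0.483). Without DMSO replicate 1 it was -0.013 and without DMSO replicate 2 it was 0.26 (edgeR adjusted p = 0.0126), so the KYSE30 value turns on which DMSO library is used. The libraries labelled U138MG had 6.19, 6.49 and 5.68 in DMSO and 9.26, 10.5 and 8.23 in PTDSS1i. Levels were low, but every PTDSS1i library was above every DMSO library, with a log2 fold change of 0.60 ± 0.12 (SE, edgeR adjusted p = 1.13e-04).

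The responses of the lines were set against each other through the line-by-treatment interaction, for which 49.9% of 18405 genes passed an adjusted p under 0.05. Of the 9 genes, 8 passed. *NOTCH1*, *JAG2* and *LFNG* fell in both lines, and more in the libraries labelled U138MG. For *JAG2* the difference of the log2 fold changes, U138MG minus KYSE30, was -1.58 ± 0.073 (SE, edgeR adjusted p = 9.59e-18). For *LFNG* it was -1.06 ± 0.1 (SE, edgeR adjusted p = 3.66e-10) and for *NOTCH1* -0.61 ± 0.074 (SE, edgeR adjusted p = 2.70e-08). *NOTCH3* and *MAML2*, which rose in KYSE30 and fell in the libraries labelled U138MG, differed by -1.43 ± 0.074 (SE, edgeR adjusted p = 5.92e-16) and by -1.08 ± 0.098 (SE, edgeR adjusted p = 7.02e-11). *HES1* and *JAG1* were lower in KYSE30 and, with TMM scaling, not called in the other libraries. They differed by 0.50 ± 0.089 (SE, edgeR adjusted p = 1.72e-05) and by 0.25 ± 0.076 (SE, edgeR adjusted p = 0.00648), the last of which was 0.14 (edgeR adjusted p = 0.119) under upper-quartile scaling. *NOTCH2* differed by 0.18 ± 0.069 (SE, edgeR adjusted p = 0.0295), and it ranged from 0.12 to 0.21 with 1 library left out. That call was lost in 8 of these 12 fits, and was kept only without KYSE30 DMSO replicate 1, KYSE30 PTDSS1i replicate 2, U138MG DMSO replicate 2 or U138MG PTDSS1i replicate 3. It was also lost under upper-quartile scaling, at 0.069 (edgeR adjusted p = 0.437), and with at least 10 counts required in every library, at 0.14 (edgeR adjusted p = 0.0666), and it does not pass an adjusted p under 0.01. For *HEY1* the difference was 0.44 ± 0.19 (SE, edgeR adjusted p = 0.0713), and it passed at 0.56 (edgeR adjusted p = 5.53e-04) without KYSE30 DMSO replicate 1. Without KYSE30 DMSO replicate 2 it was 0.28 and was not called.

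**Figure D2:**
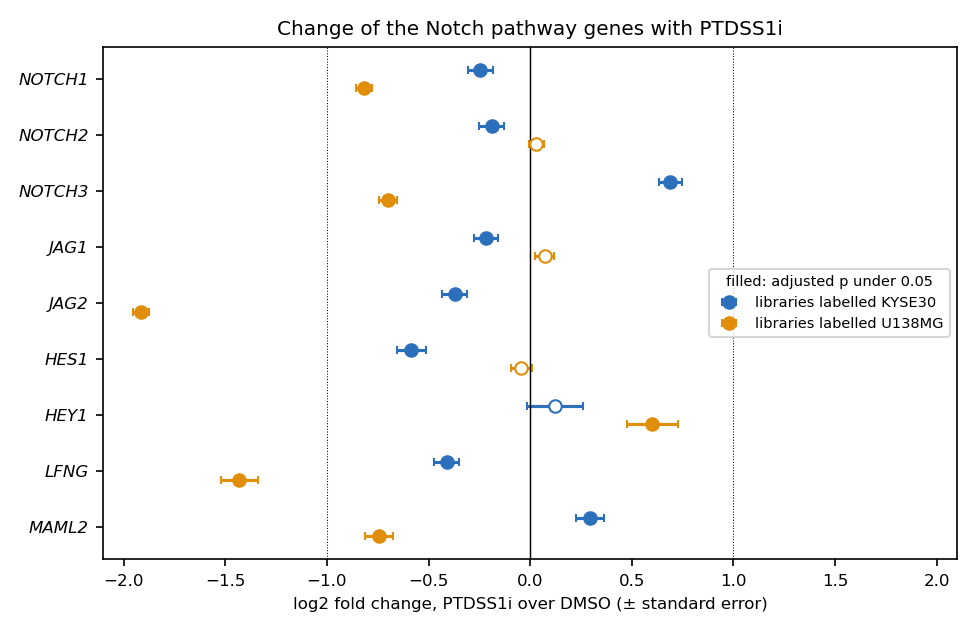
Log2 fold change of PTDSS1i over DMSO (x axis, with the standard error) for each of the 9 genes (y axis), blue for libraries labelled KYSE30 and orange for libraries labelled U138MG, filled where the edgeR adjusted p was under 0.05 and dotted lines at 1 in either direction. *NOTCH3* and *MAML2* lie to the right of 0 in blue and to the left in orange, and only *JAG2* and *LFNG* in orange pass -1.

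Dividing normalized CPM by the union exon length allows genes to be set beside each other. On this scale of normalized CPM per kb, *LFNG* (19.3 ± 1.34, SD, n = 3) and *HES1* (18.2 ± 1.11) led in KYSE30 DMSO cultures and overlapped. *JAG2* followed at 14.7 ± 1.11, apart from its neighbours. *NOTCH3*, *NOTCH1*, *HEY1* and *JAG1* then ran from 12.0 ± 0.767 to 9.91 ± 0.726, each overlapping the next. *MAML2* (4.30 ± 0.276) and *NOTCH2* (3.66 ± 0.159) were the lowest and did not overlap. With PTDSS1i, *NOTCH3* stood first at 19.3 ± 1.08, apart from *LFNG* at 14.5 ± 0.639, and *HES1*, *HEY1* and *JAG2* overlapped in turn between 12.1 ± 0.831 and 11.4 ± 0.56. The order, here and in the libraries labelled U138MG, rests on the length used. *JAG1* has 9298 union exon bases and a longest transcript of 5940, and *JAG2* has 6397 and 5835. Ranks by the longest transcript were not worked out.

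For the libraries labelled U138MG, *JAG2* (40.5 ± 1.06 normalized CPM per kb) and *NOTCH3* (38.8 ± 2.36) were highest in DMSO and overlapped, and *HES1* followed at 29.7 ± 2.01. *NOTCH2* and *NOTCH1* lay at 14.7 ± 0.632 and 13.2 ± 0.176 without overlap. *LFNG* and *JAG1* overlapped at 6.95 ± 0.483 and 6.93 ± 0.168, and *HEY1* was lowest at 1.89 ± 0.127. After PTDSS1i *HES1* was highest at 28.9 ± 0.694, *JAG2* followed *NOTCH3* and *NOTCH2* at 10.7 ± 0.523, and *HEY1*, *MAML2* and *LFNG* shared the lowest levels, from 2.88 ± 0.344 to 2.57 ± 0.195, each overlapping the next.

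The make-up of the receptor mRNA changed with these levels. In KYSE30, *NOTCH3* made up 44.3 ± 0.199% of the summed *NOTCH1*, *NOTCH2* and *NOTCH3* per kb in DMSO and 60.1 ± 0.521% with PTDSS1i (SD, n = 3), while *NOTCH1* went from 42.1 ± 0.826% to 29.8 ± 0.551%. The sum itself was 27.0 ± 1.72 and 32.1 ± 1.51 normalized CPM per kb. For the libraries labelled U138MG the sum was 66.7 ± 3.10 in DMSO and 46.4 ± 1.41 with PTDSS1i. There the share of *NOTCH2* went from 22.1 ± 0.286% to 32.4 ± 0.408% and that of *NOTCH3* from 58.1 ± 0.886% to 51.4 ± 0.858%. For each of these shares the 3 libraries of one treatment did not overlap those of the other. With the longest transcript as the length, shares of *NOTCH2* were higher, at 27.7% and 39.4% in the libraries labelled U138MG.

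Ligand mRNA was summed over *JAG1*, *JAG2* and the Delta ligands *DLL1* and *DLL3*. In the libraries labelled U138MG the sum was 78.6 ± 2.75 normalized CPM per kb in DMSO and 22.2 ± 1.24 with PTDSS1i. *JAG1*, which was not called itself, went from 8.81 ± 0.11% to 32.8 ± 0.681% of it, and *DLL1* from 38.8 ± 0.666% to 15.1 ± 1.60%. *JAG2* held 51.5 ± 0.475% and 48.3 ± 1.13%. In KYSE30 the sum was 31.3 ± 1.56 and 23.9 ± 0.523, with *JAG2* at 47.0 ± 1.52% and 47.5 ± 1.66%, shares that overlapped between treatments. With the longest transcript as the length, *JAG1* held 40.3% and 44.5% of the KYSE30 ligand sum, beside 31.8 ± 2.90% and 35.7 ± 1.43% with the union of exons. *JAG2* then held 41.8% and 41.6%, so its mean share lay under that of *JAG1* with PTDSS1i, though the libraries overlapped. On that length *JAG1* and *JAG2* held 41.4% and 42.7% in the libraries labelled U138MG with PTDSS1i, and overlapped. These sums and shares are descriptions.

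**Figure D3:**
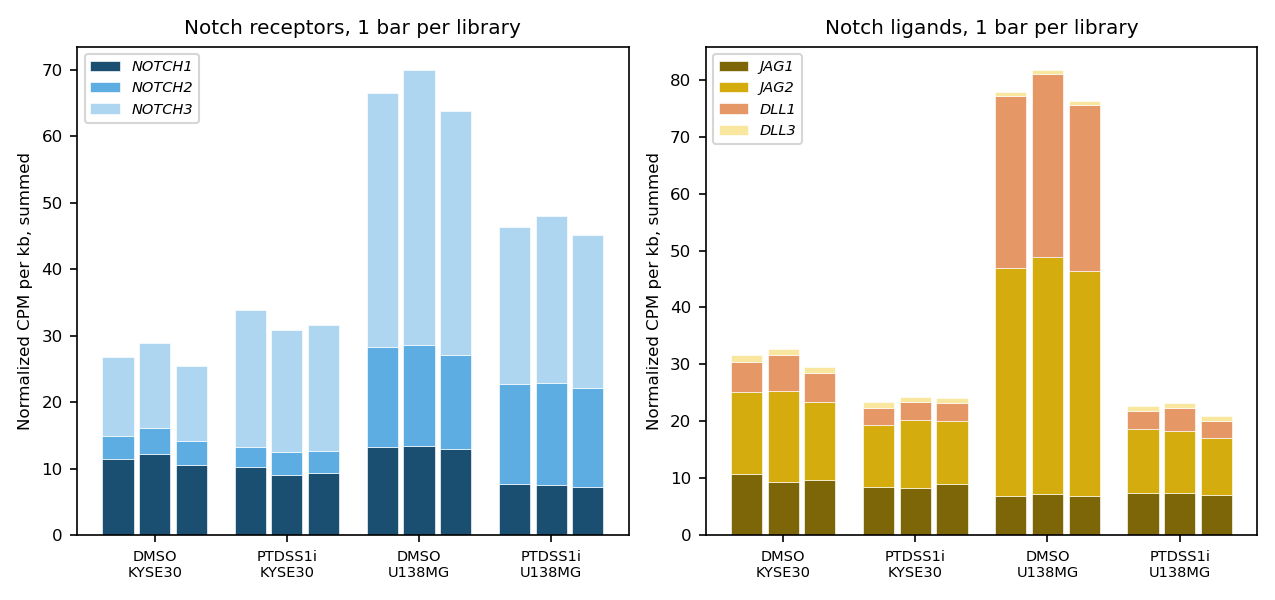
Summed normalized CPM per kb of exon (y axis, from 0) of 3 Notch receptors (left) and 4 ligands (right), 1 stacked bar per library, with libraries grouped by treatment and line label (x axis). The ligand bars of the libraries labelled U138MG are near 78.6 in DMSO and 22.2 with PTDSS1i, and the receptor bars of KYSE30 gain their height from *NOTCH3*.

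The wider pathway was described with a list of 45 other genes, of which 39 were tested in each line. In KYSE30, 17 of them were higher and 6 lower, 3 of the 17 past a log2 fold change of 1, and the median was 0.15. Over all tested genes 30.1% were higher, 32% lower and 13.4% past 1, with a median of -0.03. The libraries labelled U138MG gave 16 higher and 12 lower, with 1 and 6 past 1, and the median was 0.04. There 33.9% of all tested genes were higher, 33.6% lower and 19.8% past 1, with a median of -0.03. The split rests on the scaling. By library size alone it was 15 higher and 11 lower in KYSE30, where upper-quartile scaling left it at 17 and 6. In the libraries labelled U138MG, library size alone and upper-quartile scaling each gave 12 higher and 22 lower. Library size alone moved the median of all genes to -0.13 in KYSE30, and both scalings moved it to -0.17 in the libraries labelled U138MG. Shares of all genes higher and lower were not counted under these scalings, so these counts cannot be set beside them. The interaction test passed for 19 of 41 genes tested, beside 49.9% of all genes.

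Among the other ligands, *DLL1* and *DLK2* fell in both lines. *DLL1*, a Delta ligand, had 97.6, 104 and 93.8 normalized CPM in the libraries labelled U138MG in DMSO and 10.2, 12.7 and 9.66 with PTDSS1i, a log2 fold change of -3.19 ± 0.073 (SE, edgeR adjusted p = 2.01e-18). In KYSE30 it went from 17.8 ± 2.42 to 9.95 ± 0.359 normalized CPM (SD, n = 3), or by -0.83 ± 0.10 (SE, edgeR adjusted p = 2.96e-07). *DLK2*, a relative of the Delta ligands that lacks the receptor-activating domain, fell in both lines, by 5.74-fold in the libraries labelled U138MG with a log2 fold change of -2.52 ± 0.081 (SE, edgeR adjusted p = 5.12e-21) and by 1.44-fold in KYSE30 with a log2 fold change of -0.53 ± 0.10 (SE, edgeR adjusted p = 1.24e-04). *DNER*, a neuronal EGF-repeat protein, rose in KYSE30 from 0.684, 0.403 and 0.766 to 2.98, 2.40 and 1.90 normalized CPM, a low level, with a log2 fold change of 1.94 ± 0.27 (SE, edgeR adjusted p = 2.46e-06). Of the 5 other ligands tested in each line, 1 was higher and 2 were lower in KYSE30, and the same held in the libraries labelled U138MG, near the shares of all tested genes (30.1% and 32% in KYSE30, 33.9% and 33.6% in the other libraries).

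Of the 8 listed genes of proteases that process receptors and ligands, 5 were higher in KYSE30 and 6 in the libraries labelled U138MG, where 30.1% and 33.9% of all tested genes were. None was lower with TMM scaling, but *ADAM10* and *NCSTN* were called lower in the libraries labelled U138MG by library size alone and by upper-quartile scaling. *ADAM17*, a sheddase of the cell surface, had log2 fold changes of 0.34 ± 0.056 (SE, edgeR adjusted p = 1.55e-05) in KYSE30 and 0.84 ± 0.037 (SE, edgeR adjusted p = 7.64e-18) in the libraries labelled U138MG. *FURIN*, which cuts the receptor on its way to the surface, rose 1.80-fold in the libraries labelled U138MG with a log2 fold change of 0.85 ± 0.043 (SE, edgeR adjusted p = 2.33e-16). *ADAM10*, the main sheddase of Notch receptors, was not called, with log2 fold changes of 0.0021 in KYSE30 and 0.02 in the libraries labelled U138MG (edgeR adjusted p = 0.978 and 0.596), and scaling by library size alone turned it to -0.10 and -0.12 (edgeR adjusted p = 0.219 and 0.00737). Upper-quartile scaling turned it to -0.022 and -0.12 (edgeR adjusted p = 0.772 and 0.0067).

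Exons of *ADAM10*, *ADAM17*, *NCSTN*, *APH1A*, *PSENEN*, *DLK2*, *DTX4*, *NEURL1B* and *POFUT1* overlap those of other genes, so their counts are uncertain to that extent. Nicastrin, an APH-1 protein and PEN-2 are subunits of gamma-secretase. *PSENEN*, which encodes PEN-2, rose by 0.34 on the log2 scale in KYSE30 and 0.53 in the libraries labelled U138MG (edgeR adjusted p = 0.00296 and 4.49e-11), and its exons overlap those of *U2AF1L4* and other genes. *NCSTN* rose in KYSE30 (0.33, edgeR adjusted p = 2.38e-05) and had 0.04 in the libraries labelled U138MG (edgeR adjusted p = 0.32), which became -0.10 by library size alone (edgeR adjusted p = 0.0193). By upper-quartile scaling the latter was -0.10 too (edgeR adjusted p = 0.0208). *APH1B* had 0.58 and 0.29 (edgeR adjusted p = 0.0219 and 0.00206), and the KYSE30 call, at 1.39 to 2.07 normalized CPM, was lost without DMSO replicate 2 (0.52, edgeR adjusted p = 0.0596), DMSO replicate 3 (0.49, edgeR adjusted p = 0.0891) or PTDSS1i replicate 1 (0.56, edgeR adjusted p = 0.0575). It was also lost by library size alone (0.48, edgeR adjusted p = 0.0551) and under DESeq2 (0.60, adjusted p = 0.0795). In the libraries labelled U138MG *APH1B* was 0.14 and not called by library size alone or by upper-quartile scaling (edgeR adjusted p = 0.112 and 0.111). *APH1A* had 0.07 and 0.15 (edgeR adjusted p = 0.19 and 0.00111), which by library size alone turned to -0.031 in KYSE30 and lost its call, at 0.0017, in the libraries labelled U138MG. That call was lost under upper-quartile scaling too, at 0.0026 (edgeR adjusted p = 0.957). *PSEN2* was called in the libraries labelled U138MG, at 0.38 (edgeR adjusted p = 8.80e-05), and in KYSE30 it lay under 1 normalized CPM on average, at -0.06 (edgeR adjusted p = 0.89). The difference between the lines was not called, at 0.40 ± 0.31 (SE, edgeR adjusted p = 0.298).

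In the nucleus, *RBPJ*, the DNA-binding partner of the receptor, moved apart between the lines as *MAML2* did. It had 52.4, 55.0 and 59.7 normalized CPM in KYSE30 in DMSO and 63.1, 65.8 and 69.3 with PTDSS1i, a log2 fold change of 0.25 ± 0.061 (SE, edgeR adjusted p = 0.00146), which was 0.14 and not called by library size alone (edgeR adjusted p = 0.0645). Libraries labelled U138MG had 63.2, 68.7 and 67.3 in DMSO and 57.8, 59.2 and 58.7 with PTDSS1i, a log2 fold change of -0.18 ± 0.046 (SE, edgeR adjusted p = 0.00106). Of the 6 nuclear genes tested, *RBPJ* alone was called in KYSE30, as higher, beside 30.1% of all tested genes higher and 32% lower. In the libraries labelled U138MG, 2 were lower and none higher, beside 33.6% and 33.9% of all tested genes. The 2 were *RBPJ* and *SNW1*, the latter named after its values were seen.

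The other HES and HEY genes did not move as one. *HES2* had 43.4, 40.0 and 40.2 normalized CPM in the libraries labelled U138MG in DMSO and 5.44, 4.93 and 5.39 with PTDSS1i, 7.82-fold lower, with a log2 fold change of -2.97 ± 0.084 (SE, edgeR adjusted p = 2.45e-22). In KYSE30 the *HES2* groups overlapped at 10.3 ± 0.459 and 10.3 ± 0.669 (SD, n = 3). *HEYL*, another HEY family repressor, fell in the libraries labelled U138MG from 3.08 ± 0.52 to 1.37 ± 0.411 (SD, n = 3), or on the log2 scale -1.18 ± 0.25 (SE, edgeR adjusted p = 1.35e-04). *HES6*, which is known to counteract HES1, rose in both lines, 3.56-fold in KYSE30 with a log2 fold change of 1.83 ± 0.093 (SE, edgeR adjusted p = 2.42e-13) and 1.84-fold in the libraries labelled U138MG with a log2 fold change of 0.88 ± 0.20 (SE, edgeR adjusted p = 4.03e-04). *HES7*, a further member, rose in KYSE30 from 1.37 to 2.23 normalized CPM with a log2 fold change of 0.71 ± 0.20 (SE, edgeR adjusted p = 0.00485). It rose by a like amount in the libraries labelled U138MG, from 2.75 to 4.36, or by 0.67 ± 0.18 (SE, edgeR adjusted p = 0.00165). Counted with the feedback target *NRARP*, which was lower in both lines and is named after its values were seen, 3 of 5 tested were higher and 1 lower in KYSE30, beside 30.1% and 32% of all tested genes. In the libraries labelled U138MG 2 of 7 were higher and 4 lower, beside 33.9% and 33.6%.

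Of the ubiquitin ligases and inhibitors of the pathway, 5 of 10 were higher and 2 lower in KYSE30, and 6 of 9 were higher and 2 lower in the libraries labelled U138MG. Of all tested genes, 30.1% were higher and 32% lower in KYSE30, and 33.9% and 33.6% in the libraries labelled U138MG. *ITCH*, a ligase that marks Notch for degradation, had 97.8, 98.8 and 95.6 normalized CPM in the libraries labelled U138MG in DMSO and 258, 256 and 244 with PTDSS1i, a log2 fold change of 1.37 ± 0.036 (SE, edgeR adjusted p = 5.68e-23). *MIB1*, the ligase that drives ligand endocytosis, rose 1.95-fold in these libraries, by a log2 fold change of 0.97 ± 0.035 (SE, edgeR adjusted p = 1.10e-19). In KYSE30, *DTX4*, a Deltex ligase, rose from 16.0 ± 2.64 to 34.3 ± 1.35 (SD, n = 3), or on the log2 scale 1.10 ± 0.09 (SE, edgeR adjusted p = 1.27e-09). *NEURL1B*, a Neuralized ligase acting on ligands, and *NUMBL*, a relative of the inhibitor NUMB, fell in KYSE30, with log2 fold changes of -0.78 and -0.46 (edgeR adjusted p = 1.14e-06 and 2.43e-05). *NEURL1B* was higher in the libraries labelled U138MG, at 0.25 (edgeR adjusted p = 1.40e-04), and *NUMBL* was not called there.

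The other named glycosyltransferases differed by gene. *POFUT1*, which adds the O-fucose that fringe enzymes extend, fell in KYSE30 from 106, 107 and 106 to 74.2, 75.2 and 81.2 normalized CPM, a log2 fold change of -0.47 ± 0.053 (SE, edgeR adjusted p = 1.12e-07). *MFNG*, manic fringe, rose there with a log2 fold change of 0.66 ± 0.15 (SE, edgeR adjusted p = 6.18e-04) at a level of 3.55 to 5.59 normalized CPM. In the libraries labelled U138MG *MFNG* was under the filter on low counts and was not tested. *POGLUT1*, the O-glucosyltransferase of the receptor, fell in the libraries labelled U138MG, with a log2 fold change of -0.44 ± 0.10 (SE, edgeR adjusted p = 2.68e-04). In KYSE30 *POGLUT1* was not called, at -0.19 (edgeR adjusted p = 0.118). The difference between the lines was not called for it, at -0.29 ± 0.14 (SE, edgeR adjusted p = 0.0988).

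**Figure D4:**
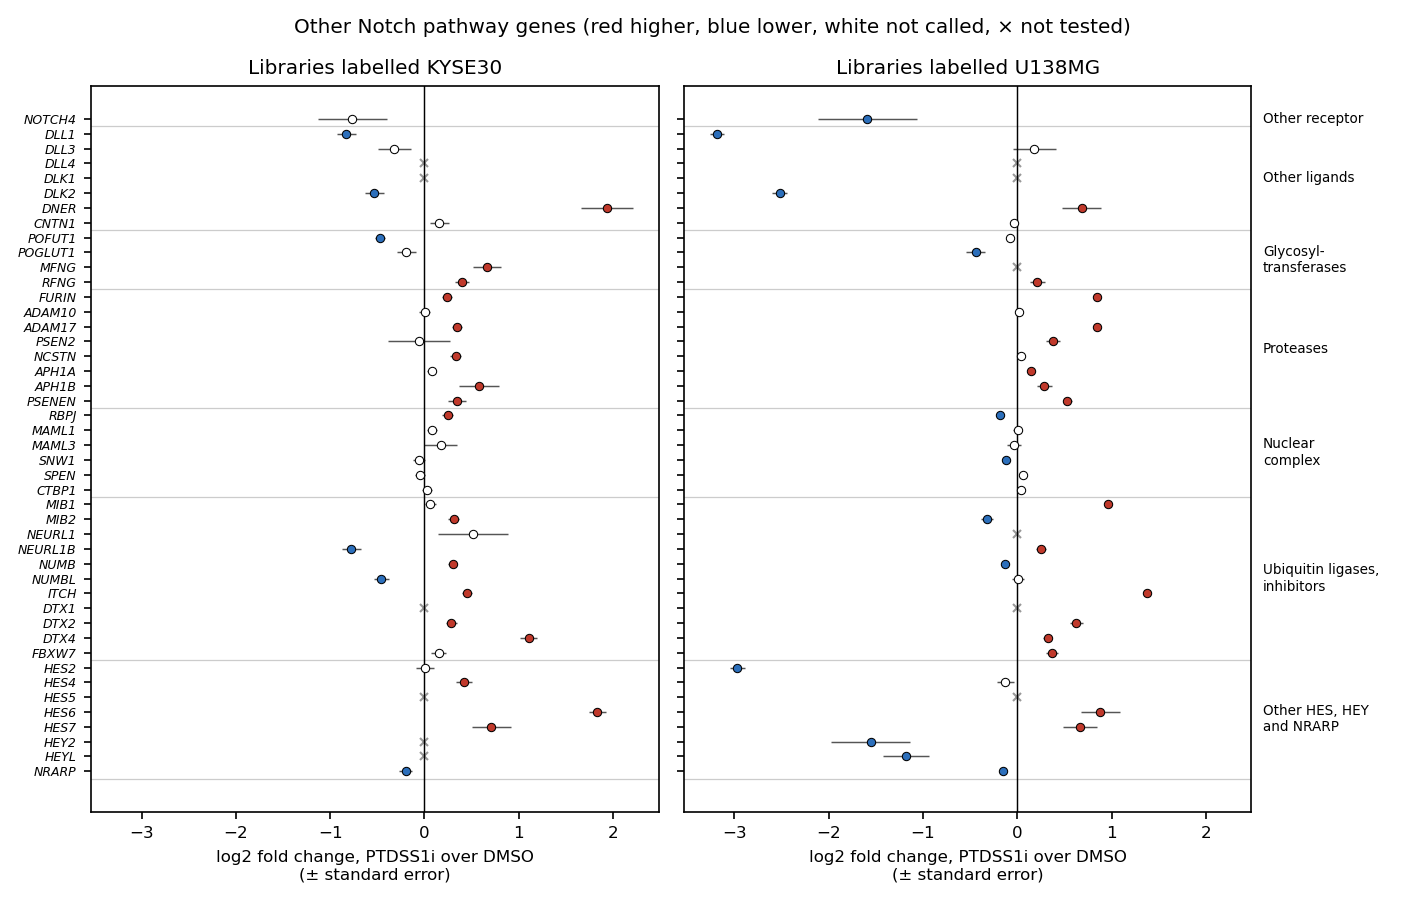
Log2 fold change of PTDSS1i over DMSO (x axis, with the standard error) for 45 other Notch pathway genes (y axis, grouped by role) in libraries labelled KYSE30 (left) and U138MG (right), red higher and blue lower at an edgeR adjusted p under 0.05, white not called and crosses not tested. *DLL1*, *HES2* and *DLK2* lie farthest to the left in the libraries labelled U138MG, at -3.19, -2.97 and -2.52, and none of the 8 protease genes is blue.

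Genes with patterns most like those of 1 receptor, 1 ligand and 1 target were sought over the 12 libraries among 10208 genes, by the smallest root mean square difference of log2 CPM centred within each line. For *NOTCH1* they were *PEX6*, *NISCH* and *SMARCC2*, at 0.0628, 0.0632 and 0.0646 on the log2 scale. For *JAG1* they were *CASC3*, *ACTG1* and *MTDH*, at 0.0417, 0.0451 and 0.0462. For *HES1* they were *BRD9*, *ACD* and *TTF1*, at 0.0628, 0.0666 and 0.0674. *BRD9* had log2 fold changes of -0.61 in KYSE30 and -0.03 in the libraries labelled U138MG, beside -0.58 and -0.04 for *HES1*. Exons of *BRD9* share 222 bases with *ZDHHC11* on the same strand and 182 with *TRIP13* on the opposite strand. Those of *SMARCC2* share 514 bases with *MYL6* on the opposite strand, and those of *PEX6*, *CASC3* and *ACD* also overlap other genes. The likeness is a description over shared libraries.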

How the data were processed

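The authors deposited raw counts, whole numbers of poly-A RNA-seq reads per gene without normalization, in a table per cell line with different gene annotations. The submitters' processing notes name Trimmomatic, STAR, featureCounts and hg38, and versions and the strand setting are not given in the sources used here. The library kit named in the labels does not mark strand, so overlapping genes are uncertain. The KYSE30 table holds no gene without a count. Sample labels gave the groups and replicate numbers.

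Tests used edgeR 4.0.16 and DESeq2 1.42.0 under R 4.3.3, while exon lengths, promoters and figures used pandas 2.3.3 and matplotlib 3.10.9 under Python 3.11.15. For each table separately, filterByExpr in edgeR (minimum count 10, minimum total count 15) chose the genes, TMM set the scaling, and the quasi-likelihood test (robust) gave p-values, adjusted by Benjamini-Hochberg across every gene tested. Each printed SE is the absolute log2 fold change, or difference of them, divided by the square root of the quasi-likelihood F statistic. The lines were compared over genes listed in both tables by identifier, which for *ITCH*, listed 2 times by name in the table labelled U138MG, chose the entry. An exact permutation test (two-sided) on 1 gene could not reach a p under 0.1 with 3 libraries a group. Totals of 18800932 to 26514658 counts limit precision, and 3 counts are at most 0.160 CPM. Biological coefficients of variation were 0.0549 in KYSE30 and 0.0452 in the libraries labelled U138MG. Over genes of at least 20 counts, replicate pairs had chi-square values of 2.29 to 7.44 per degree of freedom, above sampling noise, so none was counted as a repeat. Union exon lengths, positions and overlaps are from GENCODE 29 on GRCh38, and promoters from RefSeq on GRCh38.p14.

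Named genes were the 9 genes, *RBPJ*, *ADAM10*, *ADAM17* and listed gamma-secretase genes, and in each line and direction the 5 largest called changes of the wider list at a mean of at least 1 CPM. Genes of like pattern were the 3 nearest at a mean of at least 5 CPM, with a prior count of 2. The genes, lists and rules were chosen with earlier results of these data known. Some listed genes are not reported here. The scripts were tested on simulated data. Alternatives were library size alone, upper-quartile scaling, DESeq2, other filters, a replicate block, an adjusted p under 0.01, both lines fitted together, the longest transcript as length, and each library left out.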

Additional observations from a re-analysis of the deposited data

Results flagged for a closer look

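The response to PTDSS1i differed between the libraries labelled U138MG and KYSE30 for 8 of the 9 genes and for 15 of the 24 other pathway genes named here, by edgeR's test of the interaction of line and treatment. Differences are log2 fold changes, U138MG minus KYSE30, so a negative value is a change that was lower in the libraries labelled U138MG. Line, batch and annotation of the table cannot be told apart, and 49.9% of all genes tested passed. Most of the 24 were named for their large changes in 1 of the lines, and over the whole wider list 19 of 41 passed.

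Among the 9 genes the difference was -0.61 for *NOTCH1*, 0.18 for *NOTCH2*, -1.43 for *NOTCH3*, 0.25 for *JAG1*, -1.58 for *JAG2*, 0.50 for *HES1*, -1.06 for *LFNG* and -1.08 for *MAML2*.

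Negative differences in other genes were -3.01 for *HES2*, -2.40 for *DLL1*, -2.03 for *DLK2*, -1.29 for *DNER*, -0.99 for *HES6*, -0.82 for *DTX4*, -0.47 for *RBPJ* and -0.33 for *NCSTN*. *DLL1* and *DLK2* fell in both lines, and *DNER*, *HES6* and *DTX4* were higher in both.

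Positive differences were 0.99 for *NEURL1B*, 0.88 for *ITCH*, 0.87 for *MIB1*, 0.57 for *FURIN*, 0.46 for *ADAM17*, 0.42 for *NUMBL* and 0.35 for *POFUT1*. *ITCH*, *FURIN* and *ADAM17* rose in both lines and by more in the libraries labelled U138MG.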

How the results depend on the processing

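No alternative changed the direction or the call of *NOTCH1*, *NOTCH3*, *JAG2*, *LFNG* or *MAML2* in either line. The number of the 9 genes called was 7 to 9 in KYSE30 and 6 to 8 in the libraries labelled U138MG. Lower calls of the wider list were 11 in KYSE30 by library size alone, and 22 in the libraries labelled U138MG by library size alone and by upper-quartile scaling. These scalings moved the median log2 fold change of all genes from -0.03 to -0.17 in the libraries labelled U138MG, and library size alone to -0.13 in KYSE30. The share of all genes called lower was not counted under them.

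Log2 fold changes that turned by library size alone were -0.10 for *ADAM10*, -0.031 for *APH1A* and -0.10 for *HES2* in KYSE30, and -0.12 for *NOTCH2*, -0.076 for *JAG1*, -0.12 for *ADAM10* and -0.10 for *NCSTN* in the libraries labelled U138MG. By upper-quartile scaling they were -0.022 for *ADAM10* and -0.018 for *HES2* in KYSE30, and -0.12 for *NOTCH2*, -0.075 for *JAG1*, -0.12 for *ADAM10* and -0.10 for *NCSTN* in the libraries labelled U138MG. With no filter on low counts, *ADAM10* was -0.0084 and *HES2* -0.0043 in KYSE30. The cause was not tested.

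With each library left out, the number of the 9 genes called ranged from 7 to 9 in KYSE30 (2 to 3 higher, 5 to 6 lower) and from 6 to 7 in the libraries labelled U138MG (1 to 2 higher, 5 lower), and 7 to 9 differed between the lines. From the wider list, 22 to 25 were called in KYSE30 (16 to 18 higher, 5 to 7 lower) and 27 to 28 in the libraries labelled U138MG (15 to 16 higher, 11 to 12 lower). Values that turned ranged from -0.013 to 0.26 for *HEY1*, -0.069 to 0.044 for *ADAM10*, -0.30 to 0.38 for *PSEN2* and -0.040 to 0.056 for *HES2* in KYSE30, and from -0.076 to 0.013 for *HES1* in the libraries labelled U138MG.

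Whether the replicate numbers pair the libraries is not known, and the main tests did not pair them. Same-numbered DMSO and PTDSS1i libraries had correlations of their deviations of 0.0754, 0.0721 and 0.0204 in KYSE30. Differently numbered ones there had -0.0760 to 0.0061, all lower. In the libraries labelled U138MG same-numbered libraries had 0.0088, -0.0029 and 0.0484, and differently numbered ones -0.0638 to 0.0559. Correlations this small cannot decide the pairing. The replicate block left 8 genes called in KYSE30 and 6 in the libraries labelled U138MG, and the *HEY1* difference between the lines passed under it, at 0.43 (edgeR adjusted p = 0.00893), as it did under DESeq2 (adjusted p = 0.0359) and with no filter (edgeR adjusted p = 0.00238).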
